A study of Mus musculus with 3 samples.

Results

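The 10 transcripts described here, of 26124 genes measured, are Iqcf3, Iqcf4, Spz1, Fabp9, Ubl4b, Osbp2, Spata18, Dbil5, Ccdc136 and Crisp2. They were selected on measured values, namely a large excess of UMIs in cauda epididymal material from a mouse chimera over that from a knockout, and for their little known roles in sperm, and all 10 were listed by symbol in each of 3 single-cell count matrices. Their difference between chimera and knockout was what selected them, so it is given as a description with no test. For the chimera cauda library, a Tsc22d3-KO chimera carried mouse induced pluripotent stem cells (iPSCs). Its line is given as Pax7-nGFP iPS x goGermline, and it was labelled as spermatids and spermatozoa. Epididymal cells, as the label has it, of a Tsc22d3-KO of the goGermline line gave the KO cauda library. The cauda, the part of the epididymis in which sperm are stored, was sampled in both by aspiration through the skin. The KO testis library came from the dissociated testis of an adult Tsc22d3-KO of the goGermline line. Each group is 1 library, the matrices do not separate host from donor cells, and the labels do not say how many animals gave each sample, so no test between groups was possible.

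Spermatids condense their nuclei by replacing histones with transition proteins and then protamines, and they stop transcribing while the tail is still being built. Transcripts needed late are therefore made earlier, stored and translated afterwards, and a residue remains in mature sperm. Prm2 encodes a protamine, and Smcp encodes a cysteine-rich protein of the capsule around the midpiece mitochondria. These 2 stored messages served as references below.

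Among the 10, Iqcf3 and Iqcf4 encode small proteins of a family with the calmodulin-binding IQ motif. Spz1 encodes a basic helix-loop-helix zipper transcription factor of the testis. Fabp9 encodes a fatty acid-binding protein of the perforatorium, the skeleton at the tip of the sperm head, and Ubl4b a ubiquitin-like protein of haploid germ cells. Osbp2 encodes an oxysterol-binding protein needed by elongating spermatids, Spata18 a p53-inducible protein of mitochondrial quality control, and Dbil5 an acyl-CoA-binding peptide related to the product of Dbi. Ccdc136 encodes a coiled-coil protein of acrosome formation, and Crisp2 a cysteine-rich secretory protein found in the acrosome and the outer dense fibres of the tail.

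Positions are those of GRCm38. Spz1 (chr13:92574636-92576172, minus strand) and Ubl4b (chr3:107553687-107555073, minus strand) have a single exon each. Iqcf4 (chr9:106568319-106570996, minus strand) has 3 exons, and Dbil5 (chr11:76217608-76218666, plus strand) has 2 and overlaps the counted genes Glod4 and Gemin4 on the other strand. Fabp9 (chr3:10193621-10197283, minus strand) overlaps the counted gene model Gm37389 on its own strand. Iqcf3, whose gene ID is not in GENCODE M21, spans chr9:106504665-106561646 in the RefSeq table and overlaps Iqcf5 on the other strand. Whether reads were counted by strand is not given in the sources used here, so the UMIs (unique molecular identifiers, 1 per captured transcript molecule) of Iqcf3, Dbil5 and Fabp9 may include some of these neighbours. Spata18 (chr5:73651379-73679512, plus strand), Osbp2 (chr11:3703731-3863903, minus strand), Ccdc136 (chr6:29396309-29426994, plus strand) and Crisp2 (chr17:40764020-40807003, minus strand) are longer genes with up to 13, 14, 18 and 11 exons.

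RefSeq promoters of GRCm38.p6, from 250 bases before to 50 after a start site, were found for 9 of the 10 genes, at 16 start sites. The 5 promoters shown are those of Iqcf3 and Iqcf4, which leaned to Prm2 in the stricter barcode classes below, of Dbil5 and Crisp2, which leaned to Smcp there, and of Ubl4b. They are written 5′ to 3′ on the gene's own strand, and capitals mark matches, on either strand, to TGACGTCA (the cAMP response element), its shortened form TGACG, its 1-base variant TGACATCA, or TATAAA.
Iqcf3, chr9:106561577-106561876, minus strand: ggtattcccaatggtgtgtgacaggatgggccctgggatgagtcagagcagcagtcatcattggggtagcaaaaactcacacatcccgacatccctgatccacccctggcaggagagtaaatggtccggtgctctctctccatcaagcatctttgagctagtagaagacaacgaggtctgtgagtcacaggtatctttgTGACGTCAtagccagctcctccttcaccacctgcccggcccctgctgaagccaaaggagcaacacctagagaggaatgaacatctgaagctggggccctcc
Iqcf4, chr9:106570918-106571217, minus strand: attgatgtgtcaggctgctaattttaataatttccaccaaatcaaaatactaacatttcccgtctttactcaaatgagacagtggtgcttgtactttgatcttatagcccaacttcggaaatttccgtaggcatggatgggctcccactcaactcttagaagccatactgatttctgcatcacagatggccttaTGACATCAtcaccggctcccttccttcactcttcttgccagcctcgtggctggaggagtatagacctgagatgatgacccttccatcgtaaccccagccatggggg
Ubl4b, chr3:107555024-107555323, minus strand: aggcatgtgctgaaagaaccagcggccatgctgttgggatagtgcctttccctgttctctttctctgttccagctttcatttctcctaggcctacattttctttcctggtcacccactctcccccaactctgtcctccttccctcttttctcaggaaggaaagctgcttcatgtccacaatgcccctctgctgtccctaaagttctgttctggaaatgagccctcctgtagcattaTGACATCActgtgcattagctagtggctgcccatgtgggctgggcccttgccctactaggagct
Dbil5, chr11:76217363-76217662, plus strand: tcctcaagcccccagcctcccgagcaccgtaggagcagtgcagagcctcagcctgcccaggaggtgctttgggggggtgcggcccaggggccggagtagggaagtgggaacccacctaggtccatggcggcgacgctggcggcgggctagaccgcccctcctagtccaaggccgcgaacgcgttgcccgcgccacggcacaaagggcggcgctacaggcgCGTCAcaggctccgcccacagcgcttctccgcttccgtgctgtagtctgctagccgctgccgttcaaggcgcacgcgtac
Crisp2, chr17:40794097-40794396, minus strand: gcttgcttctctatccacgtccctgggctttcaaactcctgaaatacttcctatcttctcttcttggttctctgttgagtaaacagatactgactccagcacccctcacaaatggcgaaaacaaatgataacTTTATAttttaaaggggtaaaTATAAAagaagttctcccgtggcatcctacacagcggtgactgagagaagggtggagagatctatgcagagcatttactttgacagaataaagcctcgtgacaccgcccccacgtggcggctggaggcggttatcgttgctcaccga

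TGACGTCA occurred in 1 of the 9 genes, Iqcf3, 51 bases before its start, and in 2.03% of 27025 mouse genes, counted over all their promoters of the same length (1.79% of 32851 promoters). TGACG, which overlaps the full element, occurred in 4 of the 9, Iqcf3, Spata18, Ccdc136 and Dbil5, and in 23.0% of all genes. In Dbil5 it lay 30 bases before the start. The variant TGACATCA, searched after the sequences had been seen, occurred in Iqcf4 (56 bases before the start), Ubl4b (14 bases before) and a second Iqcf3 start site (49 bases before), against 4.18% of all genes. Crisp2 held TATAAA 118 and 97 bases before its start, against 15.7% of all genes. Each promoter shown holds a match, whereas those of Spz1, which also leaned to Prm2, and of Osbp2 hold none. Of the references, Prm2 held TATAAA 31 bases before its start and Smcp TGACATCA 24 bases after its start. These letter matches are descriptions and show no binding.

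The chimera cauda library held 5395856 UMIs, the KO cauda 41862286 and the KO testis 134795047. Levels are given as CPM, counts per 1e6 UMIs of the library or class. With 3′ counting a transcript's length does not enter its count, so CPM was compared between genes without scaling by length. The upper limit set by a count of 0 is 3 UMIs, or 0.556 CPM for the chimera, 0.0717 in KO cauda and 0.0223 in KO testis. Values in parentheses are exact 95% intervals (Poisson for levels, conditional binomial for ratios, Clopper-Pearson for shares), and both they and the floors cover counting error only. The chimera matrix kept 214502 barcodes with at least 1 UMI, of which 222 held at least 500 UMIs, whereas the lowest barcode held 501 UMIs in the KO cauda and 500 in the KO testis. The transcript sums of the 10 genes over all barcodes therefore include small barcodes in the chimera alone, and sums cannot tell fewer cells of a type from less RNA per cell.

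The cauda libraries also shared cell barcodes. Of the 222 chimera barcodes with at least 500 UMIs, 125 were barcodes of the KO cauda as well, and these held 95.3% of the UMIs of that size class. The share of barcodes also listed in the KO cauda was 1.57% among chimera barcodes of 20 to 49 UMIs, 20.8% at 50 to 99 and 69.0% at 100 to under 500. Counted at any size in the chimera, 3936 of the 3937 KO cauda barcodes were also chimera barcodes, as were 973 of the 18108 KO testis barcodes. By contrast, 14 barcodes of the KO cauda were listed in the KO testis, and 0 of the 222 chimera barcodes were. The overlap touched the 10 genes directly: of their 64 UMIs in the KO cauda, 52 (81.3%) sat in 2 barcodes. The first held 622 UMIs in the KO cauda, 41 of them from the 10 genes, and 2781 UMIs in the chimera, 207 of them from the 10 genes. The second held 714 UMIs (11 from the 10 genes) in the KO cauda and 4162 (71 from the 10 genes) in the chimera. Where shared barcodes are left out, the chimera loses all 3936 that the KO cauda lists and the KO cauda loses the 125 that reached 500 UMIs in the chimera, which leaves 9 UMIs of the 10 genes in the KO cauda. Why the libraries share barcodes was not tested, and the main results are given with and without them.

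All 10 transcripts were abundant in the chimera cauda and at 0.741 CPM or less in the KO cauda. Dbil5 was the most abundant, with 7303 UMIs in the chimera cauda, 31 in the KO cauda and 321 in the KO testis, or 1353 CPM (1323 to 1385), 0.741 CPM and 2.38 CPM. Crisp2 followed with 2310, 11 and 119 UMIs in the same order of libraries, 428 CPM (411 to 446) in the chimera cauda. Ccdc136 had 1427, 5 and 274 UMIs and Spata18 1415, 3 and 10, which are 264 CPM (251 to 279) and 262 CPM (249 to 276) in the chimera cauda and did not differ beyond counting error. Next in order came Osbp2 with 1243, 4 and 98 UMIs (230 CPM, 218 to 244), Spz1 with 1057, 3 and 3 UMIs (196 CPM, 184 to 208) and Ubl4b with 881, 3 and 0 UMIs (163 CPM, 153 to 174). Iqcf3 had 629, 2 and 2 UMIs and Iqcf4 629, 1 and 0, both 117 CPM (108 to 126) in the chimera cauda. Fabp9 had 605, 1 and 273 UMIs and 112 CPM (103 to 121), within counting error of Iqcf3 and Iqcf4. In each of the 10 the chimera cauda was the highest library by far.

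**Figure D1:**
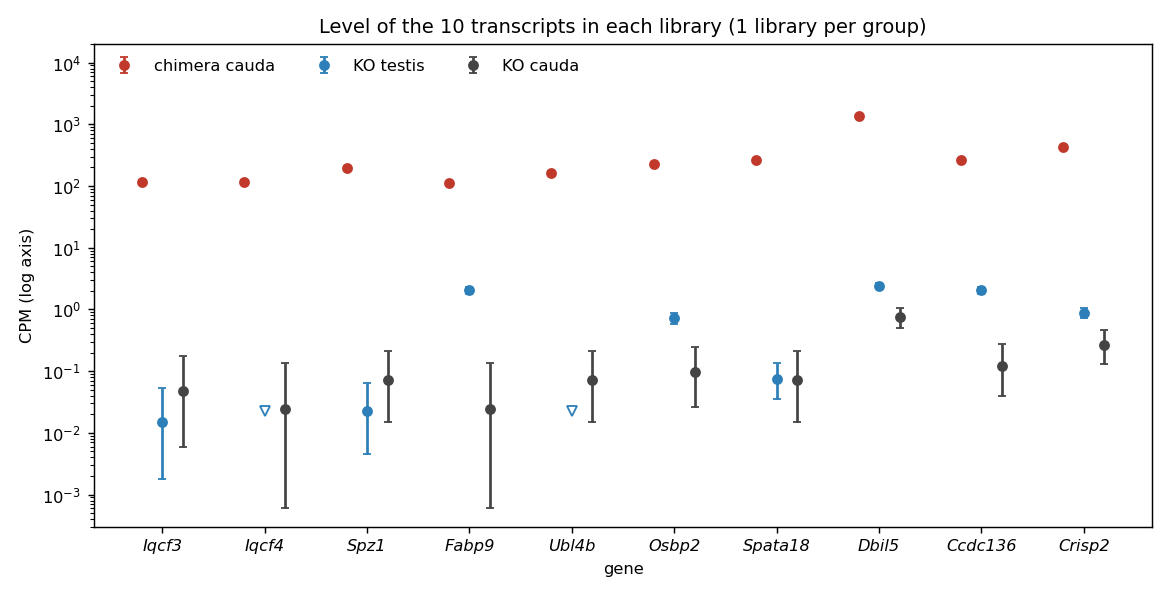
Level of each transcript (CPM, log axis) for the chimera cauda (red), KO testis (blue) and KO cauda (grey), with exact Poisson 95% intervals and 1 library per group; open triangles mark a count of 0 at its floor. The red points lie between 112 CPM (Fabp9) and 1353 CPM (Dbil5), and the blue points of Fabp9, Ccdc136 and Dbil5 lie near 2 CPM.

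The ratio of chimera to KO cauda ranged from 1629-fold for Crisp2 (909 to 3268) to 4880-fold for Iqcf4 (873 to 193049), whose KO cauda value is 1 UMI. Dbil5, counted most often in the KO cauda, gave 1828-fold (1286 to 2692). Of the 1425 genes that reached 100 CPM in either cauda library, 6.11% were at least 4-fold higher in the chimera, and all 10 members were among them, as their choice on this contrast required. Without the shared barcodes the 10 were again past this rule, beside 12.7% of 1475 genes, and the ratio of Dbil5 rose to 65365-fold (18088 to 539845) and that of Crisp2 to 41401-fold (7423 to 1635970). Fabp9, with 0 UMIs then left in the KO cauda, was at least 3575-fold higher, which shows no rise over 4694-fold. With the chimera cut to barcodes of at least 500 UMIs, which is the lower limit of the KO cauda, ratios fell but stayed above 200-fold: 292-fold for Iqcf3 (75.8 to 2489), 455-fold for Dbil5 (319 to 674) and 728-fold for Crisp2 (404 to 1467). At that cut Dbil5 (337 CPM) and Crisp2 (191 CPM) still reached 100 CPM, while Ccdc136 stood at 95.8 CPM and Iqcf3 at 13.9 CPM, so 2 of the 10 passed the size rule, beside 2.13% of 1456 genes. Shared barcodes hold 95.3% of the UMIs behind these values. Without them the cell-sized barcodes gave 5801 CPM for Dbil5, 3594 CPM for Crisp2, 1869 CPM for Ccdc136 and 194 CPM for Iqcf3, and all 10 passed, beside 21.8% of 1618 genes. The excess of the 10 was thus present in cell-sized barcodes too, but most of their molecules were elsewhere.

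Between the knockout libraries, Fabp9, Ccdc136, Osbp2, Crisp2 and Dbil5 were higher in the testis than in the cauda beyond counting error. The share of all genes that were so was not counted, so this is not shown to be particular to the members. The KO testis to KO cauda ratio was 84.8-fold for Fabp9 (15.1 to 3361, on 1 UMI in the cauda), 17.0-fold for Ccdc136 (7.20 to 52.8), 7.61-fold for Osbp2 (2.88 to 28.5), 3.36-fold for Crisp2 (1.81 to 6.91) and 3.22-fold for Dbil5 (2.22 to 4.81). Without the shared barcodes these 5 were again higher in the testis, by 48.9-fold for Dbil5 (13.4 to 405.9), 36.3-fold for Crisp2 (6.39 to 1445), 27.9-fold for Ccdc136 (9.43 to 136), at least 27.8-fold for Fabp9 and at least 9.96-fold for Osbp2, on 0 to 3 UMIs in the cauda. Spata18 gave 1.04-fold (0.267 to 5.85), and Iqcf3, Iqcf4 and Spz1, with 0 to 3 UMIs in each knockout library, could not be told apart at this depth. Ubl4b had 3 UMIs in the KO cauda and 0 in the KO testis (upper bound 0.752-fold), but all 3 lay in shared barcodes, and without these it had 0 in both.

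The molecules of the 10 were spread over very many small barcodes. Barcodes of 20 to 49 UMIs held the largest share for each of them, from 35.5% of the UMIs of Crisp2 to 54.0% of those of Iqcf3. Barcodes with at least 500 UMIs, which hold 54.5% of all UMIs of the library, held 6.34% of the Spz1 UMIs, 6.52% for Iqcf3 and 13.6% for Dbil5, and at most 24.4%, for Crisp2. Barcodes of 20 to under 500 UMIs were denser in these transcripts than barcodes of at least 500 UMIs by 17.7-fold for Spz1 (13.8 to 23.1), 16.3-fold for Iqcf3 (11.8 to 23.0), 7.69-fold for Dbil5 (7.18 to 8.24), 5.08-fold for Ccdc136 (4.44 to 5.83) and just under 4-fold for Crisp2 (3.62 to 4.42). Of 8257 genes with enough UMIs, 4.08% were at least 4-fold denser in the small barcodes, and 9 of the 10 members were, all but Crisp2. For comparison, Prm2 was 25.8-fold denser (24.1 to 27.6) and Smcp 4.43-fold (4.27 to 4.59). Among marks of other material, the epididymal gene Crisp1 was 14.6-fold denser (13.4 to 15.8) and the globin gene Hbb-bs 1.56-fold (1.52 to 1.60). Density in small barcodes was therefore not particular to sperm transcripts.

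This contrast rested on the shared barcodes, which hold nearly all UMIs of the large size class. Without them 0 of the 10 members were 4-fold denser in small barcodes, beside 8.03% of 4224 genes. Crisp2 (0.264-fold, 0.238 to 0.292), Ccdc136 (0.322-fold, 0.280 to 0.371) and Dbil5 (0.550-fold, 0.511 to 0.594) were then denser in the large barcodes. Spz1 (1.40-fold, 1.05 to 1.92) and Spata18 (1.29-fold, 1.02 to 1.66) stayed slightly denser in the small ones, and the intervals of Iqcf3, Iqcf4, Fabp9, Osbp2 and Ubl4b included 1. Smcp (0.301-fold) moved to the large barcodes like Crisp2 and Ccdc136, and so did Hbb-bs (0.0915-fold). Prm2 (2.39-fold, 2.19 to 2.60) and Crisp1 (2.09-fold, 1.84 to 2.38) did not.

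By finer size classes of these not shared barcodes, the 10 fell into different shapes. Dbil5 rose from 3254 CPM at 20 to 49 UMIs to 5801 CPM at 500 and more, Crisp2 from 767 to 3594 CPM and Ccdc136 from 561 to 1869 CPM. Osbp2, Spata18, Spz1 and Ubl4b were highest at 100 to under 500 UMIs, where Osbp2 reached 2029 CPM against 481 CPM at 20 to 49 and 640 CPM at 500 and more. Above 9 UMIs per barcode Fabp9 stayed between 224 and 302 CPM and Iqcf4 between 211 and 335 CPM, while Iqcf3 lay between 157 and 373 CPM with no steady trend. Hbb-bs, the red cell globin used as a mark of other material, was at 2230 CPM at 100 to under 500 UMIs and 88307 CPM at 500 and more.

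**Figure D2:**
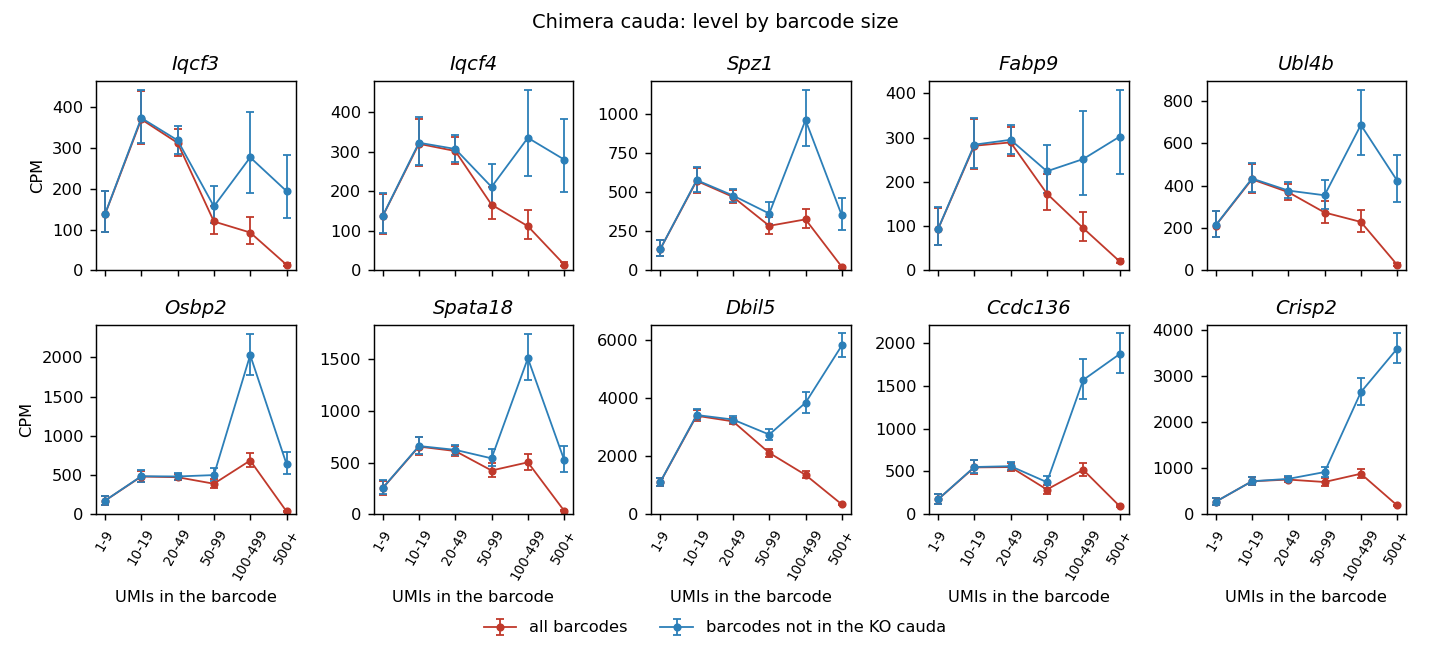
Level of each transcript (CPM) in the chimera cauda by the number of UMIs in the barcode, over all barcodes (red) and over barcodes not listed in the KO cauda (blue), with exact Poisson 95% intervals. The red lines all end low at 500 and more UMIs, whereas the blue lines of Dbil5, Ccdc136 and Crisp2 are highest there and that of Osbp2 peaks at 100 to under 500.

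Single barcodes rarely held more than 1 molecule of a member. In the 47196 chimera barcodes of 20 to under 500 UMIs, Iqcf3 was seen in 380 barcodes, 348 of them with 1 UMI, and Fabp9 in 370, 327 of them with 1 UMI and none with more than 3. Osbp2 and Crisp2 differed from this pattern. Osbp2 reached 5 or more UMIs in 18 barcodes, which held 14.8% of its UMIs, and up to 16 in a single barcode. Crisp2 did so in 23 barcodes with 13.0% of its UMIs. Dbil5, which had many more UMIs, did so in 26 barcodes with 4.12%, and no other member exceeded 3.52% (Ccdc136). These shares were 15.02% without the shared barcodes for Osbp2, 13.02% for Crisp2 and 4.16% for Dbil5.

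To ask which transcripts travelled with Prm2 and which with Smcp, barcodes of 20 to under 500 UMIs were sorted by these references, and each member's CPM was taken without the references and the member in the total. A first split took 8733 barcodes with at least 1 Prm2 and 0 Smcp UMIs and 5726 with at least 1 Smcp and 0 Prm2 UMIs, with a median of 28 and 29 UMIs. At this split, leaning meant a ratio of 2 or more, or 0.5 or less. Crisp2 leaned to Smcp with 191 UMIs in the Prm2 class and 452 in the Smcp class, a ratio of 0.299 (0.251 to 0.355), and so did Ccdc136 with 133 and 223 UMIs, 0.423 (0.339 to 0.527). Of 1249 genes with at least 50 UMIs in these classes, 4.16% leaned to Smcp and 0.641% to Prm2, and no member leaned to Prm2. Iqcf3 (1.59, 1.09 to 2.34) and Fabp9 (1.57, 1.10 to 2.27) were higher in the Prm2 class beyond counting error but under the limit, as were Dbil5 (0.719, 0.654 to 0.791) and Spata18 (0.801, 0.645 to 0.996) in the Smcp class. In these classes the ratios of Iqcf4, Spz1, Osbp2 and Ubl4b had intervals that included 1.

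The split was wider when more UMIs of a reference were required. With at least 2 UMIs of a reference and 0 of the other, Iqcf3 (23 against 4 UMIs, ratio 4.24, 1.45 to 16.9), Spz1 (48 against 10, 3.54, 1.77 to 7.85) and Iqcf4 (24 against 7, 2.53, 1.06 to 6.95) leaned to Prm2. Crisp2 (62 against 291, 0.156, 0.117 to 0.206), Ccdc136 (34 against 130, 0.193, 0.128 to 0.283) and Dbil5 (240 against 360, 0.490, 0.414 to 0.579) leaned to Smcp. Of 1613 genes with at least 10 UMIs, 16.8% leaned to Prm2 and 14.3% to Smcp at this split, beside 3 of the 10 members in each direction.

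The strictest split, chosen after the data were seen, took 126 barcodes with at least 4 Prm2 and at most 1 Smcp UMI and 221 with the reverse. Iqcf4 (13 against 1 UMI, ratio 29.1, 4.37 to 1237), Iqcf3 (11 against 1, 24.6, 3.58 to 1060), Spz1 (30 against 4, 16.8, 5.93 to 65.7) and Fabp9 (16 against 4, 8.96, 2.89 to 36.8) stood apart on the Prm2 side. Ubl4b (2.77, 1.39 to 5.58), Osbp2 (2.61, 1.64 to 4.16) and Spata18 (2.004, 1.22 to 3.27) were nearer to even, and so was Crisp1, the epididymal secretory gene used as a mark of other material (2.36, 1.19 to 4.67). Spata18 had been slightly higher in the Smcp class at the first split, so its side changed. Dbil5 (0.425, 0.307 to 0.577), Ccdc136 (0.333, 0.184 to 0.566) and Crisp2 (0.224, 0.143 to 0.336) lay on the Smcp side. By the limits of 2 and 0.5 this is 7 and 3 of the 10, where 30.5% and 33.2% of 370 genes with at least 10 UMIs leaned to Prm2 and to Smcp. The counts of members leaning each way were the same without the shared barcodes at the first and second split, and the strictest classes held no shared barcode.

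**Figure D3:**
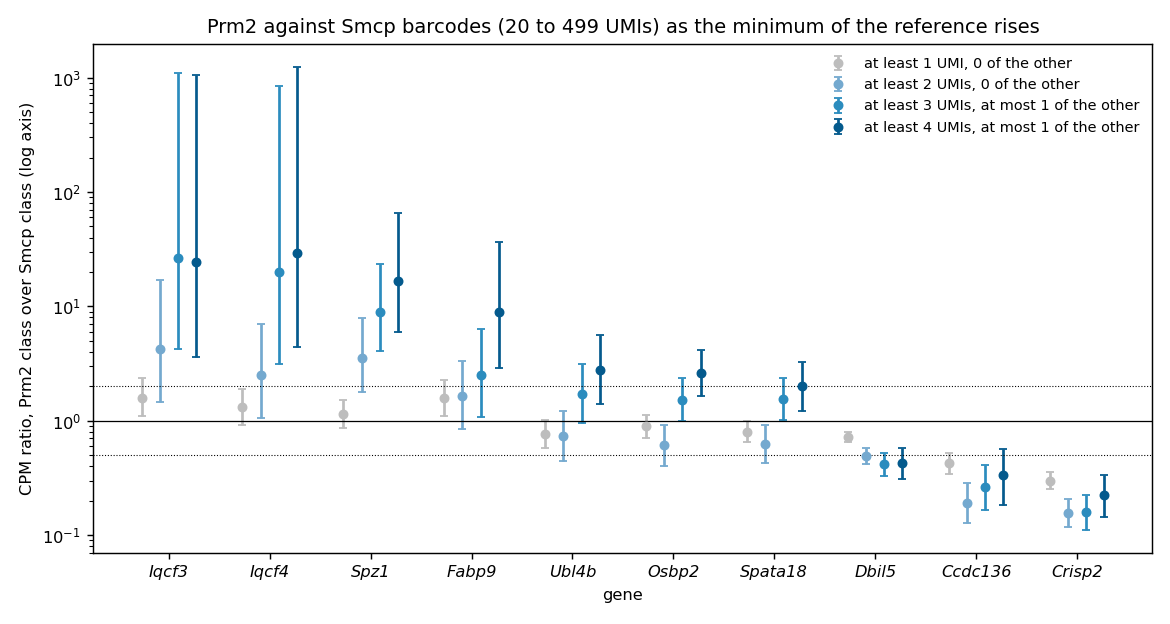
Ratio of each transcript's CPM in Prm2-class barcodes to that in Smcp-class barcodes (log axis) as the UMIs required of the reference rise from 1 (light) to 4 (dark), in chimera barcodes of 20 to under 500 UMIs, with exact conditional binomial 95% intervals; dotted lines mark 2 and 0.5. The points of Iqcf3 climb from 1.59 to 24.6 while those of Crisp2 stay between 0.156 and 0.299.

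The level of each member was also followed along the count of each reference, in barcodes with at most 1 UMI of the other. As Smcp UMIs in a barcode went from 0 to 5 and more, Crisp2 rose from 457 to 14841 CPM, Ccdc136 from 333 to 5752 CPM and Dbil5 from 2251 to 15846 CPM. Over the same steps Iqcf3 went from 208 to 65.0 CPM (1 UMI in the last class) and Spz1 from 334 to 195 CPM (3 UMIs). As Prm2 UMIs went from 0 to 5 and more, all members but Crisp2 were highest in the last class, Dbil5 and Ccdc136 included. Crisp2 was highest in the class before it. Between these ends Iqcf3 went from 195 to 1502 CPM, with 738 CPM at 3 UMIs and 901 CPM at 4, and Spz1 from 341 to 5275 CPM, with 1478 and 600.2 CPM. Iqcf4 went from 204 to 2442 CPM and Fabp9 from 194 to 3008 CPM, but at 3 and 4 UMIs Iqcf4 was at 221 and 0 CPM and Fabp9 at 148 and 0 CPM, so their rise lay in the last class. Osbp2 reached 7553 CPM (5396 to 10285) in barcodes of at least 5 Prm2 UMIs. Along Smcp it was uneven, at 583 CPM at 3 UMIs, 5030 CPM at 4 and 1106 CPM (644 to 1771) at 5 and more. The last classes are small, with 48 barcodes for Prm2 and 144 for Smcp. How many of all genes peak in them was not counted, so a peak in the last Prm2 class does not by itself show travel with Prm2. Neither last class held a shared barcode. Without the shared barcodes the class of 0 Prm2 UMIs was higher, at 258 CPM for Iqcf3, 268 CPM for Iqcf4, 252 CPM for Fabp9 and 446 CPM for Spz1. Hbb-bs rose from 6483 CPM at 0 Prm2 UMIs to 8859 CPM at 3 and was lower, at 2442 CPM, at 5 and more. Along Smcp it stood at 6505, 7943 and 7025 CPM at 0, 1 and 2 UMIs and at 2149 CPM in the last class.

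**Figure D4:**
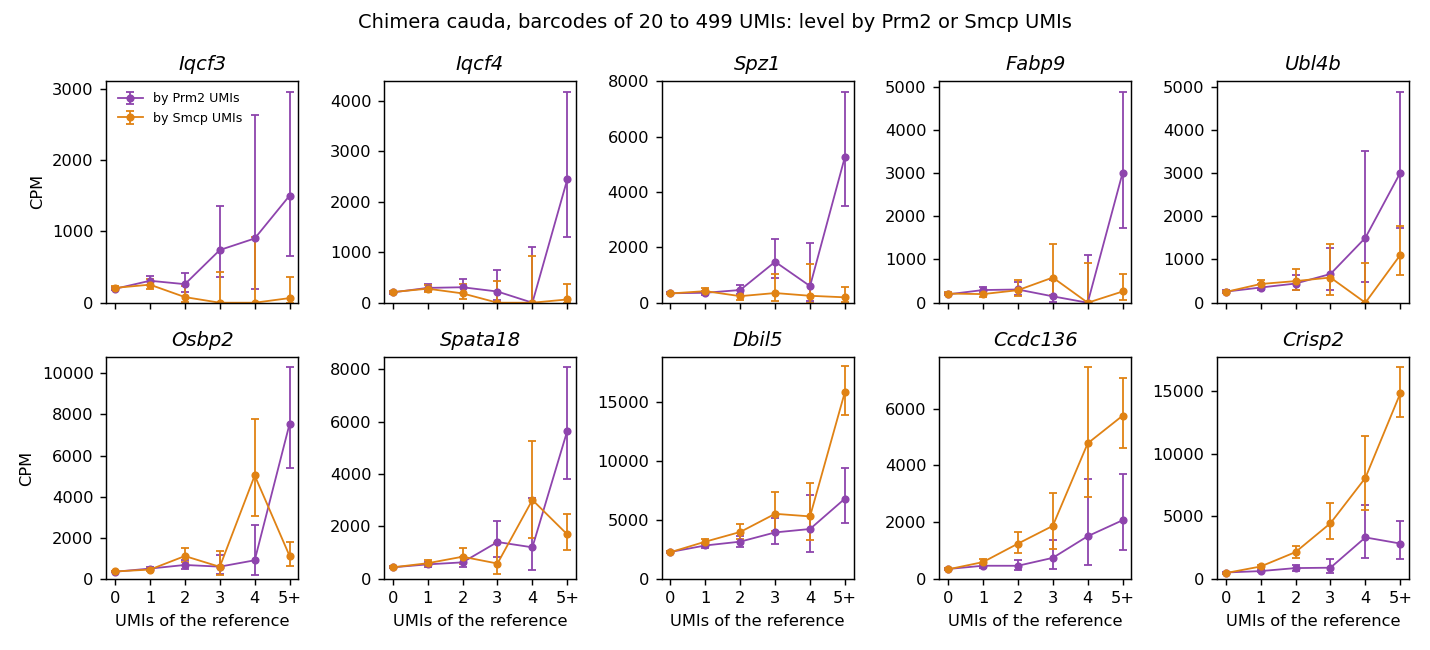
Level of each transcript (CPM) in chimera barcodes of 20 to under 500 UMIs by the number of Prm2 UMIs (purple) or Smcp UMIs (orange) in the barcode, with exact Poisson 95% intervals. Iqcf3, Iqcf4, Spz1 and Fabp9 are highest at 5 and more Prm2 UMIs, whereas Dbil5, Ccdc136 and Crisp2 climb more with Smcp, Crisp2 reaching 14841 CPM.

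A barcode that held both references was richer in the members than one that held either. No share over all genes was counted for this, so it is not shown to be particular to the members. Barcodes with both were also somewhat larger, with a median of 32 UMIs against 28 with Prm2 alone and 29 with Smcp alone. In the 1902 barcodes with at least 1 UMI of each, Osbp2 stood at 2521 CPM, against 553 CPM with Prm2 alone, 618 CPM with Smcp alone and 326 CPM with neither. Spata18 stood at 1947 CPM against 599, 747 and 414 CPM, and Spz1 at 1488 CPM against 442, 387 and 327 CPM. Fabp9 was the exception, at 377 CPM with both and 340 CPM with Prm2 alone. Without the shared barcodes Osbp2 stood at 2562 CPM with both and 436 CPM with neither, Spata18 at 1979 and 558 CPM and Spz1 at 1512 and 441 CPM. Among barcodes with at least 3 Spz1 UMIs, 18 of 19 held Prm2 and 17 of 19 Smcp, with a median of 212 UMIs. Among those with at least 3 Crisp2 UMIs, 29 of 79 (36.7%) held Prm2 and 59 of 79 (74.7%, 63.6 to 83.8) held Smcp, with a median of 109 UMIs. Over all barcodes of the window, whose median was 28 UMIs, 22.5% held Prm2 and 16.2% Smcp, and larger barcodes hold any transcript more often.

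Cell-sized barcodes of the chimera gave the members at higher counts. Of the 222, 184 passed the filters, and graph clustering with the 10 genes left out gave a B lymphocyte-like group of 85, a macrophage-like group of 74 and another group of 25 barcodes. In the last, 12 of 12 markers of elongating or condensed spermatids were raised, but none was among its 10 leading genes. These included Syce2, a listed spermatocyte marker, and its median of 1254 UMIs was low beside 13292.5 for all kept chimera barcodes. By the naming rule it was therefore left unnamed. Of the 25, 2 were shared with the KO cauda, against 53 of the 85 and 66 of the 74. Ccdc136, Dbil5 and Crisp2 were present in 25 of the 25, Spata18 in 22, Ubl4b in 21 and Osbp2 in 18. Iqcf4 and Spz1 were present in 10, Fabp9 in 6 and Iqcf3 in 5. Thinned to 500 UMIs each, 96.0% (79.6 to 99.9) of these barcodes held Ccdc136, 56.0% (34.9 to 75.6) Spata18 and 5 of 25 (6.83 to 40.7%) Iqcf3, against 5.88%, 2.35% and 2.35% of the B lymphocyte-like ones, with a median of 1254 and 8918 UMIs before thinning. With the shared barcodes left out, 23 and 32 remained, with a median of 1225 and 1010 UMIs. The shares were then 95.7% and 15.6% for Ccdc136 (78.1 to 99.9 and 5.28 to 32.8) and 56.5% and 6.25% for Spata18 (34.5 to 76.8 and 0.766 to 20.8). For Iqcf3 they were 17.4% and 6.25% (4.95 to 38.8 and 0.766 to 20.8), which overlap.

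The 25 barcodes fell apart by Prm2, and the members followed in part. After the data were seen they were divided where neighbouring Prm2 counts, each plus 1, differed by the largest ratio, into 6 with 41 to 175 Prm2 UMIs and 19 with 0 to 3. Iqcf3 had 28 UMIs in the 6 Prm2-rich and 0 in the 19 Prm2-poor barcodes, at least 22.3-fold higher in the Prm2-rich. Fabp9 had 30 and 2 UMIs (35.9-fold, 9.10 to 310), Iqcf4 24 and 5 (11.5-fold, 4.29 to 38.5) and Spz1 37 and 10 (8.84-fold, 4.31 to 19.9). Spata18 was 1.82-fold higher (1.11 to 2.95), and Osbp2 (1.32-fold, 0.792 to 2.15) and Ubl4b (1.17-fold, 0.647 to 2.04) did not differ beyond counting error. Dbil5 had 116 and 756 UMIs and was lower in the Prm2-rich barcodes (0.367-fold, 0.299 to 0.446), as were Ccdc136 (0.588-fold, 0.416 to 0.816) and Smcp (0.245-fold, 0.217 to 0.274). Crisp2 had 151 and 353 UMIs, which is even (1.02-fold, 0.839 to 1.24), unlike its lean in the small barcodes.

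These values are from single barcodes, so 1 barcode can move them. The Prm2-rich barcode of 4162 UMIs, which the KO cauda also listed, held 334 of the 355 Prm1 UMIs and 14 of the 30 Fabp9 UMIs. Without the 2 shared barcodes Iqcf3 was at least 24.4-fold higher, Fabp9 30.9-fold (7.26 to 277), Iqcf4 17.8-fold (6.60 to 59.8) and Spz1 10.8-fold (5.10 to 24.9) higher in the Prm2-rich barcodes. Dbil5 then moved to 0.639-fold (0.514 to 0.788) and Ccdc136 to 0.932-fold (0.649 to 1.31), no longer apart from even. Crisp2 (1.83-fold, 1.49 to 2.24) and Osbp2 (2.11-fold, 1.22 to 3.54) were then higher in the Prm2-rich ones. The Prm2-rich side of Iqcf3, Iqcf4 and Spz1 was therefore seen in small and in cell-sized barcodes, while the Smcp side of Crisp2 was seen in small barcodes alone. Fabp9 was on the Prm2-rich side in cell-sized barcodes. In small ones it did not lean at the first split or at the minimum of 2 UMIs, and did so at the strictest split.

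**Figure D5:**
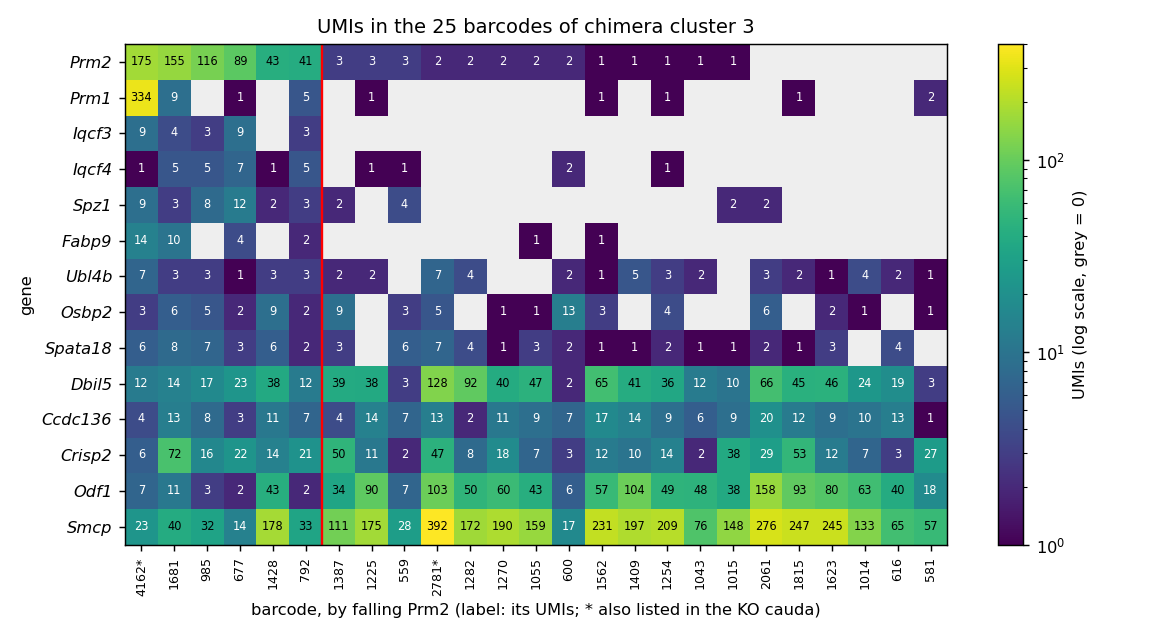
UMIs of Prm2, Prm1, the 10 transcripts, Odf1 and Smcp (rows) in each of the 25 barcodes of the spermatid-marker group (columns, by falling Prm2), with the barcode's total below and colour on a log scale; the red line parts the 6 Prm2-rich from the 19 Prm2-poor barcodes. Iqcf3 is seen left of the line alone, whereas Dbil5, Ccdc136 and Crisp2 fill all 25 columns.

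In the KO testis, which holds hardly any spermatid message (4 Prm2 and 2 Smcp UMIs), the members separated by cell class. Ccdc136 was concentrated in a spermatocyte-like cluster of 57 cells, which held 114 of its 148 UMIs in kept cells, 96.8 CPM (79.9 to 116), with 43 of the 57 cells positive. Leydig-like cells, 3113 in number, held Ccdc136 at 0.121 CPM (0.0445 to 0.264). Dbil5 stood at 16.1 CPM (9.71 to 25.2) in the spermatocyte-like cells and at 3.53 CPM (3.03 to 4.10) in Leydig-like cells, which held 175 of its UMIs. Osbp2 was found at 2.79 CPM (1.73 to 4.26) in Sertoli-like and 0.868 CPM (0.628 to 1.17) in Leydig-like cells, and at 1.70 CPM on 2 UMIs in spermatocyte-like ones. Kept cells held 0 UMIs of Iqcf3, Iqcf4 and Ubl4b.

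Fabp9 and Crisp2 in the testis lay largely outside the kept cells. Only 27.8% of the Fabp9 UMIs and 38.7% of the Crisp2 UMIs were in cells that passed the filters. A single barcode of 54103 UMIs, which the doublet filter left out, held 95 of the 273 Fabp9 UMIs, 34 of the 119 Crisp2 UMIs and 47 of the 274 Ccdc136 UMIs. It also held 109 UMIs of Sycp3, 114 of Piwil1 and 193 of Ldhc, genes of spermatocytes, and 0 of Prm2 and Smcp. Without it, 178 Fabp9, 85 Crisp2 and 227 Ccdc136 UMIs remained. In the kept spermatocyte-like cells Fabp9 stood at 6.79 CPM (2.93 to 13.4) and Crisp2 at 1.70 CPM (0.206 to 6.14). With cells of at least 1000 UMIs the spermatocyte-like cluster, then of 80 cells, gave 90.8 CPM for Fabp9 and 29.6 CPM for Crisp2, so these 2 levels depend on which cells the filters keep. In an unnamed cluster of 621 cells with a median of 882 UMIs, Fabp9 was at 29.4 CPM (18.6 to 44.1) and Crisp2 at 16.6 CPM (8.84 to 28.4).

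Set beside other genes, the members' median log2 ratio of chimera to KO cauda was 11.24, against 0.20 over the 17008 genes measured, of which 11.5% were at least 4-fold higher in the chimera. The members were chosen for a large value of this ratio, so their median cannot be ranked against those of other genes or lists. For 7 genes of nuclear condensation, among them Prm2 (20635 chimera UMIs), Prm1, Tnp2 and Tnp1, it was 9.28, and 7 of 7 were at least 4-fold higher. For 16 genes of the tail, capsule and sperm metabolism, among them Smcp (18100 chimera UMIs), Odf1, Tppp2 and Odf2, it was 9.26, and 16 of 16 were. Without the shared barcodes the medians were 13.27 for the members, 13.63 and 10.66 for these lists and 0.25 over 16941 genes, of which 19.2% were at least 4-fold higher. Many genes of the members and lists then had 0 UMIs in the KO cauda and entered at the floor. These medians are therefore lower bounds and cannot be ranked.

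Relatives of the members from the same gene families behaved less uniformly, with 5 of 11 measured relatives at least 4-fold higher in the chimera and a median of 1.05. Iqcf1 (111 chimera and 2 KO cauda UMIs, 431-fold, 116 to 3600), Iqcf5 (129 and 4, 250-fold, 95.4 to 932) and Fabp12 (52 and 0, at least 134-fold) were far higher in the chimera cauda, as were Iqcf6 on 6 UMIs against 0 (at least 15.5-fold) and Fabp5 (10.1-fold, 8.47 to 12.0). Dbi, the broadly expressed relative of Dbil5, gave 1.02-fold (0.965 to 1.08) and 0.848-fold (0.770 to 0.932) without the shared barcodes. Ubl4a, beside Ubl4b, gave 1.09-fold (0.930 to 1.27) and 0.723-fold (0.537 to 0.955), and Osbp, beside Osbp2, 0.7495-fold (0.623 to 0.895) and 0.448-fold (0.307 to 0.632). Crisp1, the epididymal relative of Crisp2, gave 1.02-fold (1.01 to 1.04) over all barcodes and 2.64-fold (2.59 to 2.70) without the shared ones. Fabp4 was 2.07-fold (1.83 to 2.33) and 2.01-fold (1.67 to 2.40). Crisp3 had 5 and 40 UMIs (0.970-fold, 0.299 to 2.46), Crisp4 had 1 UMI in each and Pmp2 none. The count of relatives at least 4-fold higher was 5 of 11 without the shared barcodes too, and Crisp1, Dbi and Ubl4a stayed under 4-fold either way.

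The pattern of single UMIs over the 47196 barcodes was compared with that of 1074 genes by correlation of depth-adjusted counts, as a description. All correlations were weak, as sparse counts make them. Crisp2 was most like Smcp (0.19), Akap12 (0.17) and Pdzd8 (0.11), Ccdc136 most like Smcp (0.12), Pebp1 and Akap12, and Dbil5 most like Smcp (0.11), Pebp1 and Gstm5. Osbp2 was most like Lipe (0.14), Reep6 (0.12) and Tssk6 (0.12), and Spata18 most like Osbp2 (0.07), Tssk6 and Prm2. Prm2 headed the list of Spz1 (0.07, then Lipe and Gsg1), Iqcf3 (0.04, then Prm3 and Prm1), Iqcf4 (0.04, then Cct2 and Gapdhs), Fabp9 (0.03, then Crisp2 and Cdv3) and Ubl4b (0.04, then Gsg1 and Smcp). A place at the head did not mean a higher correlation with Prm2 than in other members. That correlation was 0.08 for Osbp2, 0.07 for Spata18 and Dbil5, 0.04 for Ccdc136 and 0.03 for Crisp2.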

How the data were processed

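The authors deposited raw UMI counts, whole and not normalized, for each gene in each barcode from Chromium Single Cell 3′ v3.1 libraries, per the labels' protocols and the values. Cell Ranger 6, Seurat 4.2.1 and GRCm38.p6 are named in the submitters' processing notes. The KO matrices came from Cell Ranger 6.1.2 and the chimera's from Cell Ranger 4, per the file headers, so software version and group cannot be told apart. The members and lists were chosen with earlier results of these data known.

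Counts were summed over barcodes and scaled to CPM. The size rule asked for 4-fold or more and for 100 CPM or more on the higher side. Prm2 and Smcp classes used chimera barcodes of 20 to under 500 UMIs and genes with at least 50 UMIs (10 in stricter classes). Cells had at least 500 UMIs, 200 genes and at most 20% mitochondrial UMIs. The highest 0.8% per 1000 cells by simulated-doublet score were removed (0 in the chimera), and each library was clustered by the Leiden method (resolution 0.5, 2000 variable genes, 30 components, 15 neighbours, seed 7) without the 10 members. A cluster was named X-like from listed markers raised in it. Named genes were all members, the references, all relatives, the 4 list genes with most chimera UMIs, the 3 genes most alike with at least 200 UMIs, and Hbb-bs and Crisp1; genes of the filtered testis barcode were chosen after their values were seen. GENCODE M21 held 26013 of 26124 gene IDs (99.6%). Alternatives left out shared barcodes, changed the barcode window, references, totals, minimum UMIs or cell filters. The ratio code was tested on simulated data. Python 3.11.15, numpy 2.4.6, scipy 1.17.1, pandas 2.3.3, scanpy 1.11.5, scikit-learn 1.9.0 and leidenalg 0.10.2 were used.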

Additional observations from a re-analysis of the deposited data

How the results depend on the processing

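No paired analysis was possible because each group has 1 library. The count of members past the size rule was 10 and fell to 2 when the chimera was cut to barcodes with 500 UMIs or more, but was 10 at that limit without shared barcodes. The count leaning to Prm2 was 0 and became 3 with at least 2 UMIs of the reference, 4 with at least 3, 7 with at least 4 and 1 in the window of 50 to under 500 UMIs; without shared barcodes it was again 3 and 7 at minimums of 2 and 4, the latter on classes that hold no shared barcode. The count leaning to Smcp was 2 and became 0 with Prm1 and Odf1 as references, 1 with the summed lists, 1 in the window of 20 to 49 UMIs and 4 in that of 50 to under 500. The count at least 4-fold denser in small barcodes went from 9 to 0 without shared barcodes. Of those 9, Ccdc136 (0.322) and Dbil5 (0.550) then lay below 1. Fabp9 (0.917), Osbp2 (0.951) and Ubl4b (0.937) did too, but with intervals that included 1. Crisp2, just under 4-fold before, fell furthest, to 0.264. The cause was not tested. Of 40 other chimera to KO cauda ratios, 20 stayed within the counting interval, 20 moved and 0 reversed (202 to 65365-fold). Of 130 Prm2 to Smcp ratios, 66 stayed and 64 moved, the latter including the change of side of Spata18. Of 30 ratios of small to large barcodes, 12 stayed, 13 moved and 5 reversed. Reversed here means a point value that crossed 1 from a main ratio of at least 4, whatever its interval, so Crisp2 counts as moved. Of 60 levels by cell class, 48 stayed and 12 moved. Settings with at least 3 or 4 UMIs of a reference, and all that leave out shared barcodes, were chosen after seeing the data. With 1 library per group, no value here has a spread between animals, and levels on 1 to 4 UMIs are limited by depth.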
